A study of Mus musculus with 16 samples.

Results

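The microRNA miR-34a was measured in mouse liver tumours and control livers with the probes that the array files name mmu-miR-34a. These were 2 probes, A_54_P2498 and A_54_P2499, of 1672 mouse probes on the array, and they stood for 1 of 566 mouse miRNAs. All 16 arrays were used, in the 4 groups that the sample titles give. The study compared tumours carrying a mutation in Ctnnb1, which encodes beta-catenin, with tumours carrying a mutation in Ha-ras, each beside control liver, in male C3H/HeJ mice. Per the series description, mice were injected once, when 2 or 6 weeks old, with the carcinogen diethylnitrosamine (DEN) at 10 or 90 µg per g. Starting 2 weeks later they ate a diet with 0.05% phenobarbital, a tumour promoter, or a diet without it, for 28 to 36 weeks. The 7 Ctnnb1-mutated tumours and their 3 control livers were labelled as given phenobarbital, and the 3 Ha-ras-mutated tumours and their 3 control livers as given H2O. The second set of control livers is called untreated below, which refers to phenobarbital alone.

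The sources disagreed on the treatment. The sample labels gave 27 weeks of oral treatment, and the treatment protocol described phenobarbital in drinking water for 28 days in mice obtained at an age of 29 to 32 days. No label said which control livers came from DEN-treated mice, at what dose or age a given animal was injected, or whether the samples in a group are from different mice. The p-values below therefore measure only the spread between these samples. Tumours were pieces of tissue, so more miR-34a per cell and more cells that contain it cannot be told apart.

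miR-34a is a small RNA transcribed from its own gene under the control of p53, the tumour suppressor activated by DNA damage and oncogene stress. Loaded into Argonaute, it pairs through its seed with messenger RNAs and lowers their translation and stability. Known targets include messages for cyclin-dependent kinases, cyclins, the receptor Met, the survival factor Bcl2 and the deacetylase Sirt1, so it is best known as a brake on the cell cycle. The related miR-34b, miR-34c and miR-449 RNAs come from other genes and share its seed.

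The mature strand and its relatives are shown because the seed defines the family and because near-identical members could share signal on an array. Sequences are from RefSeq (GRCm38.p6), 5′ to 3′, with the seed, bases 2 to 8, in capitals. The name mmu-miR-34a on the array was taken as the 5p strand.
mmu-miR-34a-5p: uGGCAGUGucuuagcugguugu
mmu-miR-34b-5p: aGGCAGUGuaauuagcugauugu
mmu-miR-449a-5p: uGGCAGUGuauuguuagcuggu
mmu-miR-449c-5p: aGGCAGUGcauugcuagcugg
In the RefSeq table used here, 4 of 1738 mature mouse entries had this seed. The family also holds miR-34c and miR-449b, whose mature sequences were not found in that table, so 4 is not the size of the family. In a gapped alignment, 19 of the 22 bases of miR-34a-5p met an identical base in miR-34b-5p, 16 did in miR-449a-5p and 15 did in miR-449c-5p.

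The Mir34a hairpin lies at chr4:150068454-150068555 on the plus strand of GRCm38.p6, and the mature strand at chr4:150068473-150068494. In the hairpin below, the capitals mark the 5p strand (bases 20 to 41) and then the 3p strand (bases 64 to 84).
Mir34a hairpin: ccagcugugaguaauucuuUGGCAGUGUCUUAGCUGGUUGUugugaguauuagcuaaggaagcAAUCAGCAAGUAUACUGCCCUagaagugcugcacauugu
No other RefSeq gene overlapped the hairpin. The gene before it on the chromosome was the lncRNA gene Gm13067 and the gene after it was Gpr157, which encodes a G-protein-coupled receptor.

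Each array carried 10 spots of each probe. Over all arrays 18 of 320 spots were left out as outliers, and 301 of the other 302 were well above background, with none saturated. The coefficient of variation between the spots of a probe on an array ran from 2.62% to 20.7%, with a median of 8.53%. The standard error that spot scatter alone gives an array's log2 level was at most 0.05. Levels are given as log2 of the background-subtracted signal after each array was scaled by its own 75th percentile, which before scaling ran from 386 to 1248. The lower limit set on scaled values was 4.64 on this scale, below every miR-34a level. Between 83 and 117 mouse miRNAs were detected per array. All 7 Ctnnb1 tumours shared slide 1 with Ha-ras tumour replicate 1. Slide 2 held Ha-ras tumour replicates 2 and 3, phenobarbital control replicates 4 and 5 and untreated control replicate 1, and slide 3 held the other 3 controls.

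miR-34a was detected on 16 of 16 arrays, and the 3 Ha-ras tumours were the 3 highest of them. Their log2 levels were 8.68, 8.97 and 8.08. The untreated control livers measured 7.36, 5.67 and 6.79, and the phenobarbital control livers 6.82, 6.65 and 6.20. In the Ctnnb1 tumours, replicates 1 to 7 measured 5.98, 6.89, 5.99, 6.97, 6.58, 8.02 and 7.06. Ctnnb1 tumour replicate 6, the fourth highest array, lay just under the lowest Ha-ras tumour, and the other 6 Ctnnb1 tumours lay within the range of the control livers. As group means ± SD, the levels were 8.58 ± 0.45 in Ha-ras tumours (n = 3), 6.78 ± 0.70 in Ctnnb1 tumours (n = 7), 6.61 ± 0.86 in untreated controls (n = 3) and 6.55 ± 0.32 in phenobarbital controls (n = 3). The last 3 groups in that order overlapped one another.

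**Figure D1:**
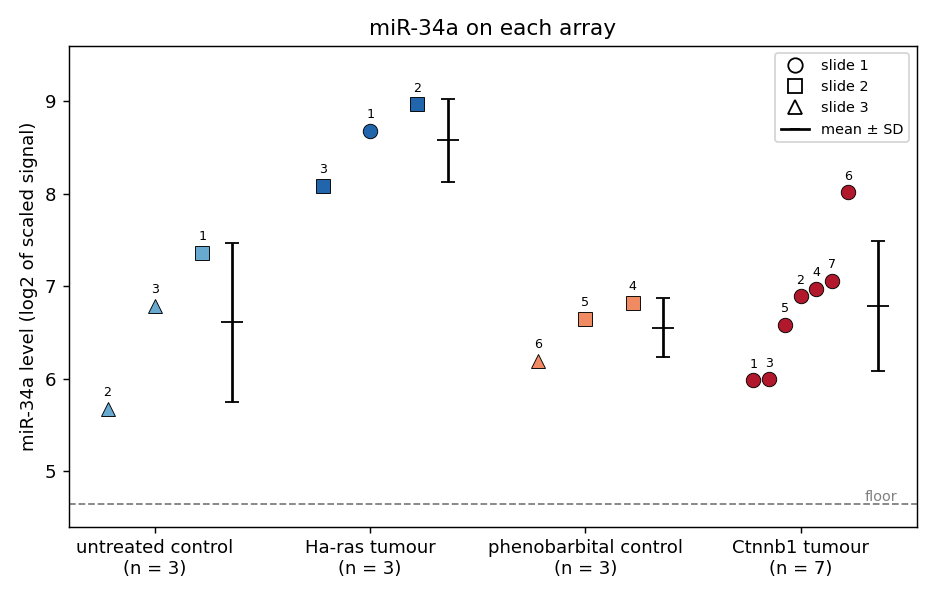
The vertical axis gives the log2 level of miR-34a on each array, with 1 point per array, its replicate number above it and its slide as the symbol. Crosses with bars give group means ± SD. The Ha-ras tumours lie from 8.08 to 8.97, above all other arrays, and Ctnnb1 tumour replicate 6 at 8.02 is the nearest to them.

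miR-34a varied more between samples of a group than most miRNAs did. The residual SD of the fit over the 4 groups was 0.65, the 6th largest of the 96 miRNAs tested, whose median was 0.24. The highest array exceeded the lowest 4.09-fold among the Ctnnb1 tumours, 3.22-fold among the untreated controls, 1.84-fold among the Ha-ras tumours and 1.54-fold among the phenobarbital controls.

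The first comparison asked how Ha-ras tumours differed from untreated control liver. miR-34a rose 3.91-fold in Ha-ras tumours, a log2 fold change of 1.97 (SE 0.48, 95% interval 0.93 to 3.0, limma adjusted p = 0.00845 over 96 miRNAs). It was higher in 9 of 9 pairs of a tumour and a control, and the groups did not overlap. Of all miRNAs tested, 29.2% were called in this comparison, 9.38% higher and 19.8% lower, while 42.7% had groups that did not overlap, 16.7% with the tumours higher. Among the 75 miRNAs detected on every array of both groups, none had a larger log2 rise. That place was the same under the 75th percentile over all mouse probes, the median, quantile normalisation, no scaling, normexp background, the total gene signal and the deposited values. A larger change was fitted for miR-146b, which was detected on 2 of the 3 untreated control arrays. The exact two-sided permutation test on miR-34a alone gave p = 0.1, the smallest p that 3 against 3 arrays allow, and 0.2 after adjustment over the 4 pairs of groups tested.

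This call rested on few arrays. Without untreated control replicate 2, the lowest array of all, the log2 fold change was 1.5 and the adjusted p from limma 0.0502. Blocking on slide as a fixed term gave 1.36 (adjusted p = 0.230), and within slide 2, with 2 tumours at 8.97 and 8.08 against 1 control at 7.36, it was 1.16 (adjusted p = 0.164). The scaling also set how many miRNAs were called: 9 rose and 19 fell as reported, 12 rose and 0 fell after scaling by the percentile over all mouse probes, and 7 rose and 0 fell with no scaling. The median log2 fold change of all miRNAs tested was -0.06, 0.28 and 0.16 in those settings, against 1.97, 2.54 and 2.38 for miR-34a.

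The second comparison set the tumour types against each other. miR-34a was 3.47-fold lower in Ctnnb1 than in Ha-ras tumours, a log2 fold change of -1.79 (SE 0.41, 95% interval -2.67 to -0.92, limma adjusted p = 0.00897). It was lower in each of the 21 pairs, and the groups did not overlap, with a gap from 8.02 to 8.08. In this comparison 30.2% of miRNAs were called, 13.5% lower and 16.7% higher, while 18.8% had groups that did not overlap, 6.25% with the Ctnnb1 tumours lower and 12.5% with them higher. No other of 75 miRNAs detected on every array of both groups fell as far, again under each way of making the values named above. A larger fall was fitted for miR-146b, which was not detected on any Ctnnb1 tumour array. The exact two-sided permutation p was 0.0167, the smallest possible for 7 against 3 arrays, and 0.0667 after Benjamini-Hochberg adjustment over the same 4 pairs. As reported, 16 miRNAs were called higher and 13 lower, against 2 and 20 after scaling by the percentile over all mouse probes, where the median log2 fold change of all miRNAs was -0.32 and that of miR-34a -2.34. With the median as the scale the numbers were 22 and 10, and with no scaling 2 and 5.

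Ctnnb1 tumours were labelled as given phenobarbital and Ha-ras tumours as given H2O, so treatment and mutation cannot be told apart in this comparison. Without Ha-ras tumour replicate 2 the log2 fold change was -1.60 and the limma adjusted p 0.0663. Blocking on slide as a fixed term gave -1.90 (adjusted p = 0.0776). That value rests on slide 1, where Ha-ras tumour replicate 1 at 8.68 stood above all 7 Ctnnb1 tumours, and within slide 1 alone the adjusted p was 0.176. The 3 Ha-ras tumours are the same arrays in both comparisons, which are therefore not independent of each other.

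In Ctnnb1 tumours against their phenobarbital controls, miR-34a did not pass the test. The log2 fold change was 0.23 (SE 0.41, 95% interval -0.64 to 1.10, limma adjusted p = 0.775), and the tumour was the higher in 13 of 21 pairs. Of all miRNAs tested 8.33% were called here, all of them lower in the tumours, and 0 after scaling by the percentile over all mouse probes or with no scaling. The interval runs from 0.641-fold to 2.15-fold, and these arrays do not tell apart the changes within it. No slide held both groups, so slide and group cannot be told apart. The exact two-sided permutation p was 0.633.

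Between the 2 kinds of control liver, miR-34a did not pass the test. Phenobarbital controls differed from untreated controls by -0.06 on the log2 scale (SE 0.48, 95% interval -1.09 to 0.98, limma adjusted p = 0.958), and the exact two-sided permutation p was 0.9. limma called 0.0% of miRNAs in this comparison, with 6 of 96 at an unadjusted p under 0.05, while the deposited values gave 5 calls. These 3 against 3 arrays do not tell apart the changes within that interval.

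Whether the 2 tumour types shifted miR-34a differently from their own controls was tested directly. The Ctnnb1 tumour effect minus the Ha-ras tumour effect was -1.74 on the log2 scale (SE 0.63, 95% interval -3.09 to -0.38). The unadjusted p of 0.0154 became 0.164 after adjustment over the 96 miRNAs in limma, so the difference did not pass the threshold. Of all miRNAs, 2.08% passed it. These were miR-146b and miR-31, which were at the lower limit on all or most Ctnnb1 tumour arrays. With the test limited to the 72 miRNAs detected on all arrays, 0 passed.

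Both probes gave the same directions and calls. Over the 16 arrays their log2 levels correlated at Pearson r = 0.994 and Spearman rho = 0.997, with the sample, the array and its scaling in common. For Ha-ras tumours against untreated controls the log2 fold change was 2.04 at probe A_54_P2498 (limma adjusted p = 0.00578 over 159 probes) and 1.90 at probe A_54_P2499 (adjusted p = 0.00769), where 29.6% of probes were called. For Ctnnb1 against Ha-ras tumours it was -1.80 and -1.79 (adjusted p = 0.0061 for both), where 31.4% were called. Neither probe passed in Ctnnb1 tumours against phenobarbital controls, between the controls or for the difference of the tumour effects, where 7.55%, 0.0% and 3.77% of probes were called. Blocking on slide as a fixed term left neither probe past the threshold in any contrast.

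The log2 difference between the 2 probes of miR-34a was lower in all 10 tumours (0.95 to 1.25) than in all 6 control livers (1.29 to 1.42), a pattern noticed after the values were seen. Among the 43 miRNAs with 2 or more probes detected on all arrays, 4.65% had all tumours on one side of all controls in the log2 difference between their 2 brightest probes. The groups did not overlap for 18.6% of them in Ctnnb1 tumours against phenobarbital controls and for 23.3% in Ha-ras tumours against untreated controls. On slide 2 alone, Ha-ras tumour replicates 2 and 3 had differences of 1.22 and 1.11, and the 3 controls 1.29 to 1.33. On average the difference was 0.17 lower in Ctnnb1 tumours than in phenobarbital controls and 0.14 lower in Ha-ras tumours than in untreated controls.

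**Figure D2:**
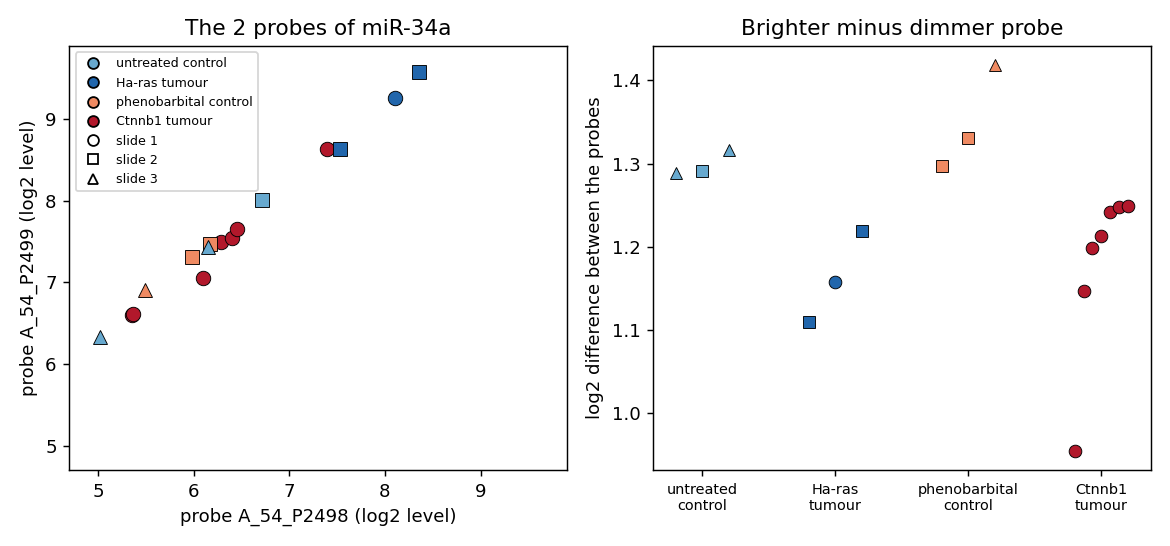
The left panel plots the log2 level of probe A_54_P2499 against that of probe A_54_P2498, 1 point per array, and the 16 points lie along a line (r = 0.994). The right panel gives the log2 difference between the probes on each array, from 0.95 in Ctnnb1 tumour replicate 5 to 1.42 in a phenobarbital control. Colours mark groups and symbols mark slides.

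**Figure D3:**
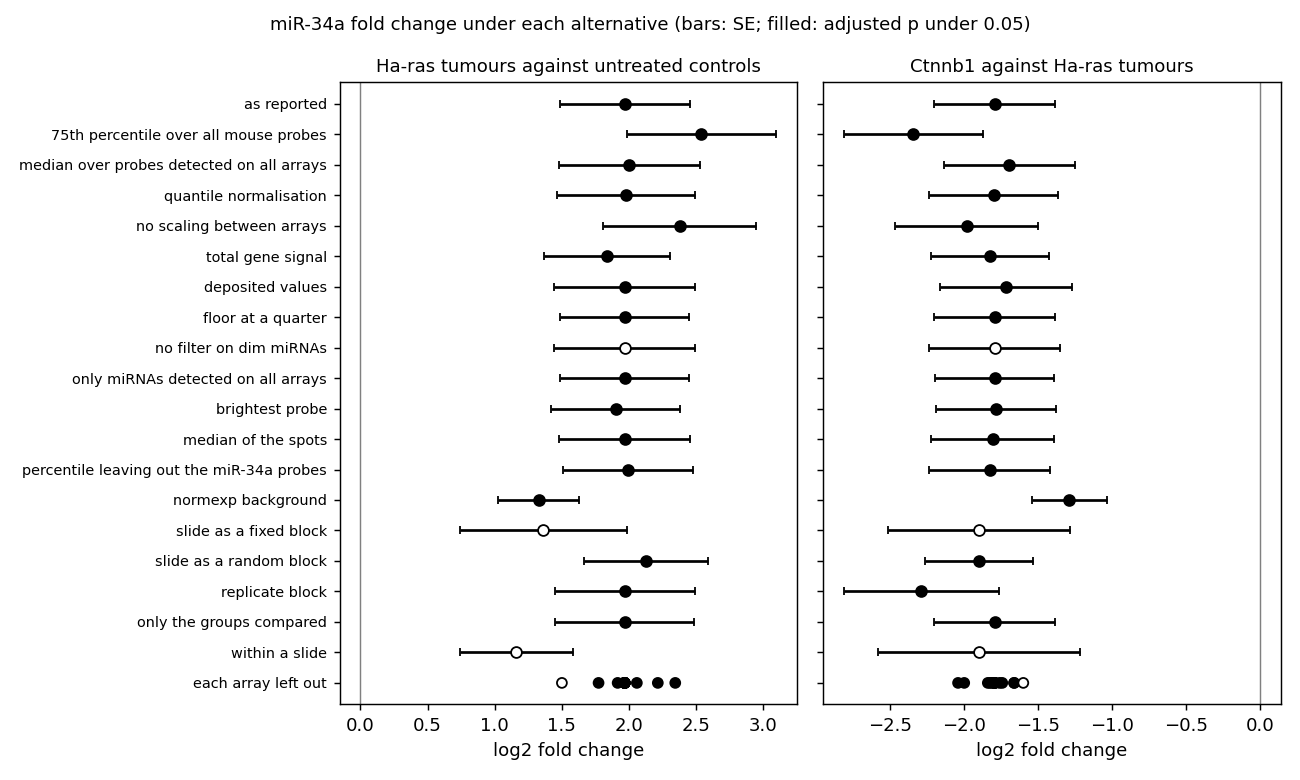
Each line is 1 way of processing the data, and the horizontal axis gives the log2 fold change of miR-34a with its SE, for Ha-ras tumours against untreated controls on the left and Ctnnb1 against Ha-ras tumours on the right. Filled points have an adjusted p under 0.05. Left-panel values run from 1.16 to 2.54 and right-panel values from -2.34 to -1.29. In both panels the call is lost without the filter on dim miRNAs, with slide as a fixed block and within a slide. Of the fits that leave out 1 array, the call is lost only without untreated control replicate 2 on the left. On the right it is lost only without Ha-ras tumour replicate 2.

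The relatives of miR-34a were below detection in these livers. miR-34b-3p, miR-34b-5p, miR-34c, miR-34c*, miR-449a, miR-449b and miR-449c were each detected on 0 of 16 arrays. Among their used spots, 1 of 315 for miR-449a and 1 of 318 for miR-449b was well above background, and none for the other 5. On the array with the highest value, the mean unscaled signal of miR-34b-5p was 8.27, and that of miR-34a ran from 50.4 to 886 over the arrays. Signals of different probes are not comparable as amounts. With gaps allowed, miR-34b-5p was the closest of the relatives shown above, at 19 of 22 bases. Without gaps, counted from the 5′ end, it matched miR-34a-5p at 11 of 22 positions. By that count miR-449a-5p matched at 15 of 22 and miR-449c-5p at 12 of 21. The probes of miR-34b-5p gave no detected signal on the arrays where miR-34a was brightest. Whether the miR-34a probes take up signal from relatives was not tested.

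A list of miRNAs reported as p53-dependent was read beside miR-34a. The list held 16 miRNAs that p53 is reported to induce or help to mature, of which 15 were on the array and 7, miR-34a included, were tested. In Ha-ras tumours against untreated controls the other 6 had log2 fold changes from -0.68 to 0.24 with a median of -0.25, beside -0.06 for all miRNAs. None of the 6 was called higher, beside 9.38% of all miRNAs, a count too small to set apart from that share. The count was also 0 under the percentile over all mouse probes, the median, quantile normalisation, no scaling, the total gene signal, normexp background and the deposited values. Of the 6, miR-143 was called lower, though not with no scaling, the percentile over all mouse probes, normexp background or the deposited values. It lay at the lower limit on all 3 Ha-ras tumour arrays, so the size of that fall depends on the limit. In Ctnnb1 against Ha-ras tumours 2 of the 6 were called higher, beside 16.7% of all miRNAs, and none lower, beside 13.5%. Under the percentile over all mouse probes 0 were called higher there and 1, miR-194, lower. In the other 3 contrasts none was called.

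The members with the smallest p-values follow. miR-15a and miR-16, a pair that restrains cyclins and Bcl2, were higher in Ctnnb1 than in Ha-ras tumours. For miR-15a the Ha-ras tumours measured 7.88, 7.99 and 8.49 and the Ctnnb1 tumours 8.57 to 9.01 with a median of 8.80, so the groups did not overlap. The log2 fold change was 0.68 (SE 0.13, limma adjusted p = 0.00164). For miR-16 the Ha-ras tumours measured 6.53, 6.96 and 7.31 and the Ctnnb1 tumours 7.18 to 7.66 with a median of 7.46, with a log2 fold change of 0.52 (SE 0.16, limma adjusted p = 0.0284). Here 1 Ha-ras tumour lay within the range of the Ctnnb1 tumours. Both calls were lost under the percentile over all mouse probes, with log2 fold changes of 0.13 for miR-15a and -0.033 for miR-16, and with no scaling, at 0.49 and 0.33. The call of miR-16 was also lost in the total gene signal and with normexp background. miR-194, a hepatocyte miRNA encoded beside miR-192, had a log2 fold change of -0.51 in Ctnnb1 against Ha-ras tumours (limma adjusted p = 0.109), the sign that miR-34a had. Under the percentile over all mouse probes it was -1.06 (limma adjusted p = 0.00703). In Ha-ras tumours against untreated controls its log2 fold change was 0.24 (limma adjusted p = 0.539). miR-143, a miRNA of smooth muscle and stroma, entered the test only through the untreated controls. It was detected on all 3 of these arrays, at 4.67, 5.60 and 5.67 in replicates 1 to 3. It was not well above background on any Ha-ras tumour array, and its level was at the lower limit on all 3. There its group mean was at least 1.40-fold lower than in untreated controls, a bound taken from the lowest detected signal of each array. Untreated control replicate 1 lay just above the lower limit, so this bound rests on untreated control replicates 2 and 3. The limma adjusted p of 0.0146 rests on values set to that limit and cannot be read as a measurement.

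The miRNAs whose log2 levels followed miR-34a most closely over the 16 arrays were miR-146b (r = 0.80), miR-21 (r = 0.74), miR-31 (r = 0.72), miR-221 (r = 0.72) and miR-148b (r = 0.69). Over the 95 other miRNAs tested, r ran from -0.75 to 0.80 with a median of -0.25. None of these 5 has the seed of miR-34a. The arrays share a scaling and fall into groups, so the values describe these arrays only. Spearman's rho was 0.44, 0.63, 0.29, 0.59 and 0.61 in the same order, and r was 0.50, 0.55, 0.37, 0.51 and 0.54 without Ha-ras tumour replicates 1 and 2.

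The 5 miRNAs followed miR-34a in different ways. miR-146b, a miRNA linked to inflammatory signalling, measured 7.67 to 9.17 in the Ha-ras tumours and was not detected on any Ctnnb1 tumour or phenobarbital control array. miR-31 measured 5.88 to 5.99 in the Ha-ras tumours and at most 5.05 on any other array. For both, the likeness rests on the 3 Ha-ras tumours, and the r of deviations from the group means was 0.23 and -0.14. miR-21, an abundant miRNA raised in many tumours, measured 13.3 to 13.7 in Ha-ras tumours and 12.1 to 13.4 in Ctnnb1 tumours, which overlapped. Among the 7 Ctnnb1 tumours alone, r with miR-34a was 0.62 for miR-21, 0.67 for miR-221 and 0.60 for miR-148b, which ranked 13th, 9th and 16th of the miRNAs compared there. It was -0.50 for miR-31, which lay at the lower limit on 6 of these arrays, and none could be given for miR-146b, at the limit on all 7. miR-148b was also near the limit, at 4.76 to 5.40 in these tumours, and was detected on 13 of 16 arrays.

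**Figure D4:**
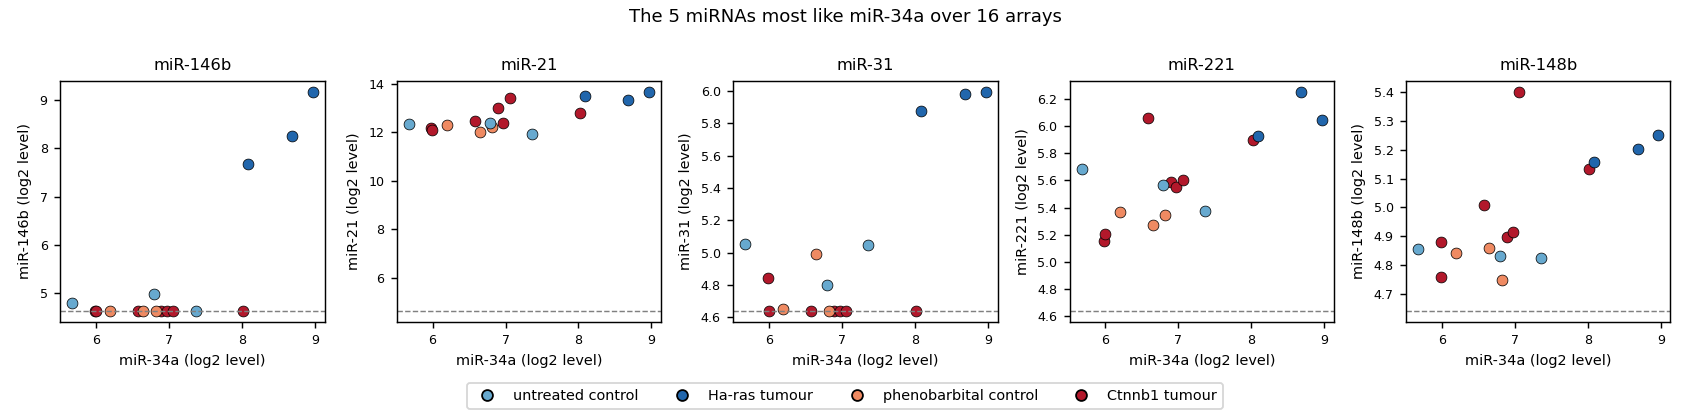
Each panel plots the log2 level of 1 of the 5 miRNAs most like miR-34a against the log2 level of miR-34a, 1 point per array, coloured by group, with the lower limit of 4.64 as a dashed line. miR-146b and miR-31 lie near that line outside the 3 Ha-ras tumours, while miR-21, miR-221 and miR-148b also spread within the Ctnnb1 tumours. miR-148b lies near the line too, at 4.76 to 5.40 in the Ctnnb1 tumours.

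At the other end, miR-22* (r = -0.75), miR-23b (r = -0.73), miR-30b (r = -0.70), miR-22 (r = -0.68) and miR-29c (r = -0.64) had the lowest correlations. With no scaling between arrays these became -0.04, 0.18, 0.18, 0.0046 and 0.21, so the opposite course depends on the scaling. miR-22* was at the lower limit in all 3 Ha-ras tumours, though it was detected on 2 of these arrays. On the other arrays it was at 4.84 to 5.18, so its r also depends on that limit. The 5 highest had r between 0.80 and 0.84 with no scaling, where the median over all 95 miRNAs was 0.35 in place of -0.25.

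The cell type markers showed liver tissue in all groups. For the 4 hepatocyte miRNAs, the log2 of their summed scaled signals was 14.2 to 14.6 in Ha-ras tumours and 14.3 to 14.4 in untreated controls. It was 13.4 to 14.4 in Ctnnb1 tumours and 14.2 to 14.4 in phenobarbital controls. The sums below are of the same kind, over the tested members of a list. In them the brightest member weighs most, and a member at the lower limit adds a constant. All 4 neural and muscle miRNAs were detected on 0 of 16 arrays. Leukocyte sums overlapped between Ha-ras tumours (7.46 to 8.83) and untreated controls (7.87 to 8.81), as did erythroid sums (10.5 to 12.4 and 10.3 to 12.3) and the 1 endothelial miRNA tested (8.97 to 9.34 and 9.24 to 9.55). The lists hold 6, 3 and 2 miRNAs, of which miR-150 and miR-155 in the leukocyte list were detected on 0 arrays. In Ha-ras tumours against untreated controls none of the 4 hepatocyte, 3 leukocyte, 2 erythroid and 1 endothelial miRNAs tested was called, beside 29.2% of all miRNAs. In Ctnnb1 against Ha-ras tumours 1 of 4 hepatocyte miRNAs was called lower, beside 13.5% of all, and 1 of 3 leukocyte miRNAs higher, beside 16.7%. The mesenchymal and smooth muscle sum was lower in Ha-ras tumours (5.80 to 5.89) than in untreated controls (6.50 to 7.45), with 2 of its 2 tested members called lower, beside 19.8% of all miRNAs, and miR-145 and miR-214 of its 5 members detected on no array. Of these 2, miR-143 was at the lower limit in all Ha-ras tumours and was tested only through the untreated controls. Untreated control replicate 1, at 4.67, lay just above that limit. The sum was also lower in Ctnnb1 tumours (5.88 to 6.56) than in phenobarbital controls (7.07 to 7.17), with 1 of 2 called lower, beside 8.33% of all miRNAs, while miR-34a was not called there. Under the percentile over all mouse probes and with no scaling, 0 of these 2 were called in either comparison. Of the biliary and epithelial list, miR-200a was detected on 2 arrays and miR-200b on 5, and miR-200c, miR-141 and miR-429 on 0. The part of these shifts in the miR-34a values was not tested.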

How the data were processed

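RNA from 16 samples was hybridised to 1-colour Agilent mouse miRNA arrays, 1 array per sample, with 25 ng of total RNA labelled per the labels' protocols. The deposited spot intensities are background-subtracted processed signals from Feature Extraction 10.7.3.1, whose design build is mm9, per the file headers. The authors also deposited a table of log2 values for 146 mouse miRNAs. R 2.14.1 is credited to it in the submitters' processing notes, and how the table was normalized was not given in the sources used here. On every array that table ranked miRNAs as the total gene signal did (Spearman rho 1), with column medians of 5.57 to 5.62, and it served as an alternative.

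The mean over a probe's spots, outliers excluded, was divided by the array's 75th percentile of the 117 mouse probes that all arrays detected. Scaled values under 25.0 were raised to that floor, which is the median of the arrays' lowest detected signals, log2 was taken, and the probes of a miRNA were averaged. A probe counted as detected where more than 0.5 of its spots were well above background. Tests covered the 96 miRNAs (159 probes) that all arrays of some group detected, in 1 limma 3.58.1 fit of 4 group means in R 4.3.3 (Benjamini-Hochberg, threshold 0.05), tested on simulated data. Exact permutation tests used scipy 1.17.1.

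Named miRNAs were miR-34a, its seed family, up to 4 tested miRNAs of a p53 list by smallest p, and the 5 with the highest and the 5 with the lowest r. The member and the lists were chosen with earlier results of these data known. Alternatives changed the scaling, background, floor, filter, summary, blocks and arrays used. Replicate numbers are shared between groups, and the deviations of same-numbered samples did not settle whether the numbers pair the samples.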

Additional observations from a re-analysis of the deposited data

Results flagged for a closer look

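Among the 7 Ctnnb1 tumours, 2 measured values stood apart from the rest of their group by their gap relative to the group's range. Chance flags about 1 in 20 groups in this way. The screen covered several measures of miR-34a, the correlated miRNAs and the p53-list miRNAs described above, so a flag by chance is to be expected. The log2 difference between the 2 probes of miR-34a was 0.95 in replicate 5, against 1.15 to 1.25 in the other 6 tumours, and its miR-34a level of 6.58 lay in the middle of the group. The log2 level of miR-22 was 12.38 in replicate 5, the same array as the low probe difference. The log2 level of miR-31 was 4.84 in replicate 1, with the other 6 tumours at the lower limit. Any single value above that limit would stand apart in this way, so it says only that miR-31 was detected on that array.

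The fitted tumour effect differed between the 2 tumour types for miR-146b and miR-31, both of which entered the test only through the Ha-ras tumours, where they are high. For miR-146b the Ctnnb1 tumour effect minus the Ha-ras tumour effect was -3.56 on the log2 scale, but all 7 Ctnnb1 tumours and 3 phenobarbital controls were at the lower limit, so no Ctnnb1 tumour effect was measured and neither the size nor its p can be read as a measurement. In Ha-ras tumours miR-146b was at least 11.9-fold above Ctnnb1 tumours, a bound taken from the lowest detected signal of each array. For miR-31 the fitted difference was -1.08, with detection limited to 1 of 7 Ctnnb1 tumour and 1 of 3 phenobarbital control arrays, so its size depends on the lower limit too.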

How the results depend on the processing

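Over all alternatives, the log2 fold change of miR-34a in Ha-ras tumours against untreated controls stayed above 0 and that in Ctnnb1 against Ha-ras tumours stayed below 0, and 30 of 34 alternatives kept each call. In limma, fitted across all miRNAs, the calls were lost with no filter on dim miRNAs, which raises the number tested to 566 (1.97, adjusted p = 0.0801, and -1.79, adjusted p = 0.111), when slide was a fixed block (1.36, adjusted p = 0.230, and -1.90, adjusted p = 0.0776), and within slide 2 (1.16, adjusted p = 0.164) or slide 1 (-1.90, adjusted p = 0.176). Leaving out 1 array gave 1.5 to 2.35 (adjusted p up to 0.0502) and -2.04 to -1.60 (adjusted p up to 0.0663). It gave 0.03 to 0.36 for Ctnnb1 tumours against phenobarbital controls, -0.52 to 0.32 between the controls and -2.11 to -1.27 for the difference of the tumour effects, with no call in these 3. Directions turned, without a call, to -0.20 with slide as a fixed block for Ctnnb1 tumours against phenobarbital controls (probes -0.13 and -0.28) and to 0.050 with slide as a random block between the controls. Between the controls, leaving out phenobarbital control replicate 6, untreated control replicate 1 or untreated control replicate 3 turned it to 0.12, 0.32 and 0.03 (probe A_54_P2498 0.12, 0.30 and 0.012, over a range from -0.55, and probe A_54_P2499 0.13, 0.34 and 0.057, over a range from -0.49). Probe A_54_P2499 in Ctnnb1 tumours turned to -0.065 without Ctnnb1 tumour replicate 6 and to -0.016 without phenobarbital control replicate 6, over a range up to 0.27. The causes were not tested. Normexp background gave 1.33 and -1.29. Scaling that left out the miR-34a probes, chosen after seeing that probe A_54_P2499 set the percentile of Ha-ras tumour replicate 1, gave 1.99 and -1.82.

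Same-numbered samples correlated in their deviations at 0.24, -0.06 and -0.77 in the phenobarbital arm and 0.58, -0.68 and -0.09 in the other. At 0.58, Ha-ras tumour replicate 1 and untreated control replicate 1 were each the other's best match between those groups. So few correlations cannot settle whether the numbers pair the samples. With the replicate block the 5 contrasts, in the order Ctnnb1 tumours against phenobarbital controls, Ha-ras tumours against untreated controls, Ctnnb1 against Ha-ras tumours, between the controls and the difference of effects, were 0.64, 1.97, -2.29, -0.96 and -1.33, and no call of miR-34a changed. No slide holds Ctnnb1 tumours with phenobarbital controls, so those contrasts have no within-slide value. Of all miRNAs, the numbers called in Ha-ras tumours against untreated controls (28) fell to 13 without Ha-ras tumour replicate 1 and also without untreated control replicate 2, to 9 with slide as a fixed block and to 12 in the deposited values. Between the tumour types (29) they fell to 5 without Ha-ras tumour replicate 2, to 8 with slide as a fixed block and to 10 with the replicate block. In Ctnnb1 tumours against phenobarbital controls (8) they ranged from 0 with no scaling to 20 with slide as a random block.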
